A study of Mus musculus with 3 samples.

Results

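Drd4, the gene of the dopamine D4 receptor, Entrez gene 13491, was read by 1 of the 12488 probe sets of the array, here in the retina of normal mouse pups 10 days after birth. It is 1 of 8251 genes that the annotation names singly. The probe set was found by its gene symbol in GEO's platform annotation. Drd4 itself was chosen on its signals in these same samples, so every value below is a description and none was tested. The 3 samples were pools of neural retinas from 3 to 4 mice each, of mixed 129/SvEv and C57BL/6 background, all collected between 1 and 2 pm, and each pool was hybridised to 1 Affymetrix U74Av2 oligonucleotide array. The mice were wildtype littermates of Rp1-/- animals, and Rp1 is a photoreceptor gene. All 3 pools form 1 group, numbered 1 to 3 in accession order. Rp1 also appears in the titles of pools 2 and 3, although all 3 descriptions give a wild-type genotype. The labels do not say whether the pools shared animals, so the spread given below measures only the difference between these pools.

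Dopamine in the retina is made by a sparse class of amacrine cells and is released in the light. It reaches photoreceptors largely by diffusion, where the D4 receptor, which couples to inhibitory G proteins, lowers cyclic AMP and with it the electrical coupling of rods and cones and other features of dark adaptation. Drd4 mRNA is known in rodents to be made by photoreceptors and some inner retinal cells, and to be higher at night than by day, so a collection after midday falls in its low phase in the adult.

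The mouse Drd4 gene lies on chromosome 7, and the stretch just before it is shown for reference, since it is the part of the gene closest to where transcription starts. It is chr7:141291768-141291973 on the plus strand of GRCm38.p6, taken from RefSeq, and it is the part of the 300-base promoter window that precedes the annotated gene. Capitals mark each match to the GC box GGGCGG, searched on both strands.
Drd4 upstream: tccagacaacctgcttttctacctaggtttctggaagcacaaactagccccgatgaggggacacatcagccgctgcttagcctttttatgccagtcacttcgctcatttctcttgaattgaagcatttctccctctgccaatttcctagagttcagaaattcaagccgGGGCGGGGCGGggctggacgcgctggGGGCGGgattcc
The 206 bases were 53.9% G and C, and the capitals gather in the part nearest the gene. The whole window held 3 GC boxes, the first pair sharing a base, and 35.7% of all 32851 promoter windows of that length held at least 1. The letters of an E-box (CACGTG, in 7.15% of windows), a CRX-type homeodomain site (TAATCC, in 7.06%), a full cyclic AMP response element (TGACGTCA, in 1.79%) and its half-site (TGACG, in 20.8%) were not found in the window on either strand. A match of letters is not a binding site, and the arrays do not measure this region.

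Before the values of Drd4, the pools themselves are described, because pool 2 stood apart in some respects and pool 3 in others. The 2% trimmed means were 499.8 to 499.9, so the deposited signals were used without rescaling. For background, 81 probe sets of 65 genes typical of other organs, such as liver, pancreas and muscle, were used, and the 90th percentile of their signals served as the limit of that array. It came to 390.8 in pool 1, 538.4 in pool 2 and 418.2 in pool 3. Probe sets above the limit numbered 4655, 3629 and 4391, fewest in pool 2. For Actb the 3′ signal over the 5′ signal, a sign of RNA and labelling quality, was 1.20, 1.44 and 1.69 in pools 1, 2 and 3, and that of Gapdh 0.95, 0.88 and 0.93. Summed signals of 11 measured lens genes were 226816, 36700 and 423620. On its brightest probe set every one of them was highest in pool 3 and lowest in pool 2. Other probe sets could differ, as for Crybb2 below. Summed signals of 4 measured red blood cell genes were 21921, 4653 and 15038, also lowest in pool 2. All 12 measured rod genes of the marker list were above background in every pool, so the tissue label holds for photoreceptors. Amacrine genes (6 of 10) and ganglion cell genes (4 of 7) were above it in all pools in part. So were Müller glia genes (4 of 6) and bipolar genes (2 of 4). The share of all named genes above it in all pools was 33.4%. Of 7 pigment epithelium genes none was above it in all pools, with Dct and Pmel above it in 2 pools each.

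The Drd4 signal was 536.9 in pool 1, 648.0 in pool 2 and 2699.7 in pool 3. Pools 1 and 2 were low and close to each other, and pool 3 stood far above both. The mean was 1295 ± 1218 (SD, n = 3), an SD almost as large as the mean, so the mean describes none of the pools. On the log2 scale the signals were 9.07, 9.34 and 11.40, with a mean of 9.94 ± 1.27 (SD, n = 3).

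Drd4 exceeded the background limit in 3 of 3 pools. Over the whole array, 27.1% of 12422 probe sets (controls left out) did so. The margin was narrow in pools 1 and 2, where Drd4 was 1.37 and 1.20 times the limit, and wide in pool 3, at 6.46 times. Of the 81 probe sets of other tissues, 5 read higher than Drd4 in pool 1, 6 in pool 2 and 0 in pool 3. With the limit moved to the 95th percentile (586.7, 713.3 and 587.8), Drd4 was above it in pool 3 alone. The signal of pools 1 and 2 is therefore near what probe sets of genes of other tissues can give, whereas that of pool 3 is not.

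**Figure D1:**
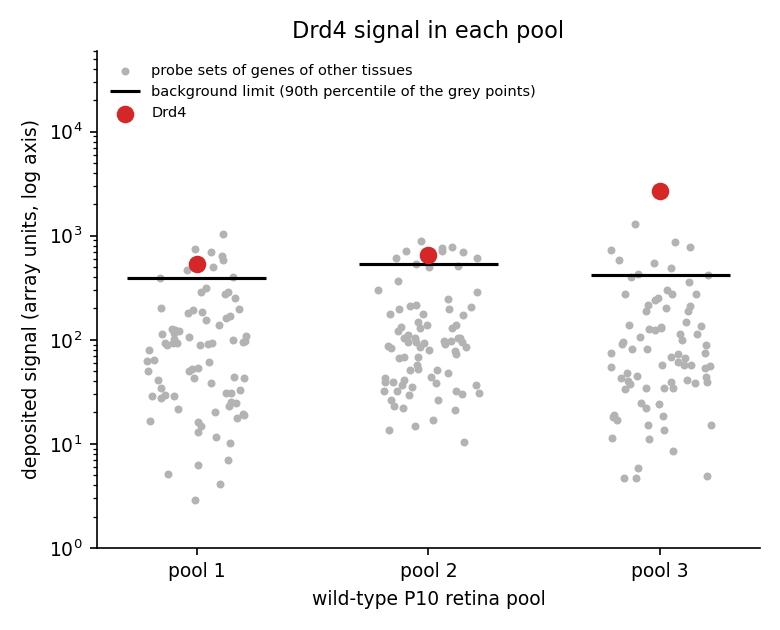
Deposited signal (array units, log axis) in each of the 3 pools: red points are Drd4, grey points the 81 probe sets of genes from other tissues (shifted sideways for visibility), and black lines the background limit of each array. Drd4 lies just above the limit in pools 1 and 2 (536.9 and 648.0) and above every grey point in pool 3 (2699.7).

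Between pools 1 and 2 Drd4 differed by 0.27 on the log2 scale, a 1.21-fold difference. The median size of that difference over the 4199 probe sets above the mean limit on average was 0.29, so these pools agreed on Drd4 about as well as on a typical transcript. Pool 3 exceeded pool 1 by 2.33 on the log2 scale, or 5.03-fold, a difference larger than that of 99.8% of the 4199 probe sets, with 8 probe sets differing more. Pool 3 exceeded pool 2 by 2.06, or 4.17-fold, larger than 99.3% of them. Part of the signal in pools 1 and 2 may be background, so a fold from these signals can understate the difference. With the limit of each array subtracted, an alternative chosen after seeing the data, pool 3 was 15.6-fold above pool 1. That limit is a high percentile, and the median of the same probe sets was 89.0 in pool 1 and 73.6 in pool 3. Subtracting the limit thus takes away more than their typical signal and can overstate the fold.

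The SD of log2 signal over the pools, 1.27 for Drd4, compares with a median of 0.26 over the 4199 probe sets, and 27 of these had a larger SD. Without pool 3 the SD of Drd4 was 0.19, and 48.3% of the probe sets had a smaller one. Pool 3 alone thus carried the spread. Without pool 1 the SD was 1.46 and without pool 2 it was 1.65. The labels give the same hours of the day for all 3 pools, and an effect of time was not tested. Drd4 had 1 probe set and each pool 1 array, so the signal of pool 3 had no second reading. A larger share of cells that make Drd4 and more Drd4 RNA per cell cannot be told apart in pooled tissue.

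Few transcripts came close to the pattern of Drd4 in both shape and size. Likeness was measured as the largest gap, in any of the 3 pools, between log2 signals each centred on its own mean, over 3026 other named probe sets above background in all pools. The median gap was 1.49, with 3 probe sets within 0.5 and 89 within 1. A gene with the same order of pools but a smaller step than Drd4 also has a large gap. The nearest was Clu, clusterin, a secreted chaperone made by Müller glia among other cells, with a gap of 0.36 and signals of 635.8, 702.0 and 2107.2. Its other probe set, above background in pool 3 only, read 265.0, 395.9 and 1061.4, in the same order. Slc6a6, the taurine transporter, came next with a gap of 0.42 and signals of 1626, 2471 and 5939. Aldoc, a glycolytic aldolase, had a gap of 0.49 and read 1445, 1205 and 3800 to the nearest unit. Rcvrn, the photoreceptor calcium sensor recoverin, had a gap of 0.50 and read 3146, 2429 and 8726. The fifth was Sf3a2, a splicing factor subunit, with a gap of 0.56 and signals of 1870, 1416 and 4677 to the nearest unit. All 5 were highest in pool 3, which follows from their choice by likeness to Drd4. They were 2.50-fold to 3.65-fold higher there than in pool 1, less than the 5.03-fold of Drd4.

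By the size of the step from pools 1 and 2 to pool 3, 3 of the 3026 probe sets went beyond Drd4, whose pool 3 signal was 4.17 times the higher of the other pools. They were Gnat1, the alpha subunit of rod transducin, at 9.96 times, and the lens crystallins Crygs and Crybb2 at 5.14 and 4.90 times. They are named here after their values were seen. Gnat1 read 1014.7, 1101.3 and 10970.1, so that it was, like Drd4, alike in pools 1 and 2 and far higher in pool 3. The crystallins differed from Drd4 in pool 2, where Crygs read 1623.5 against 10983.6 in pool 1, whereas Drd4 was alike in those pools. A dimmer Crybb2 probe set, also above background in all pools, read 1202.5, 1332.7 and 929.8, lowest in pool 3.

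**Figure D2:**
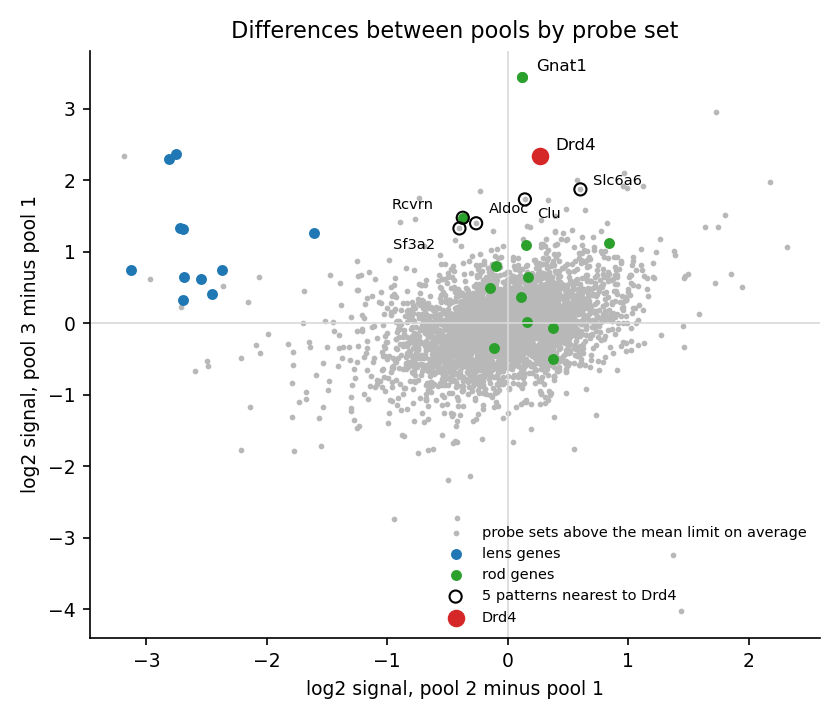
Log2 signal of pool 2 minus pool 1 (horizontal) and of pool 3 minus pool 1 (vertical) for each of the 4199 probe sets above the mean limit on average (grey), with Drd4 in red, lens genes in blue, rod genes in green and the 5 nearest patterns ringed. Drd4 lies at 0.27 and 2.33, near the vertical zero line with Gnat1 above it, while the lens genes lie far to the left.

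Since Drd4 is known from photoreceptors, the rod genes were set beside it. Of the 12 measured, 8 were highest in pool 3, against 31.1% of the 2753 genes above background in all pools. The median difference of pool 3 from the mean of pools 1 and 2 was 0.56 on the log2 scale for the rod genes and -0.039 over those 2753 genes, beside 2.19 for Drd4. Values below the limit included, that median was 2.06 for lens, 0.68 for vessel, 0.51 for Müller glia and 0.50 for ganglion cell genes. It was 0.50 for red blood cell, 0.47 for pigment epithelium, 0.14 for bipolar, -0.023 for cone and -0.16 for amacrine genes. A rise of that size was thus not particular to rod genes. Sag, rod arrestin, read 22066, 24854 and 34554, and Pde6b, a subunit of the rod phosphodiesterase, 9198, 9944 and 11793. The transcription factors of photoreceptors were lowest in pool 3, where Crx read 6475 against 8223 and 7620 in pools 1 and 2, and Nrl 493.6 against 518.5 and 672.0. Prph2, a rod gene of the list that is not a transcription factor, was lowest there too, at 2094, 2718 and 1483. Pdc, at 21088, 23619 and 21313, was highest in pool 2. Summed rod signals were 86860, 91741 and 128656. The part of rod content, of lens tissue or of the Actb end ratio in the Drd4 signal of pool 3 was not tested.

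Müller glia genes, the list that holds Clu, were highest in pool 3 in 4 of 6 cases, against 33.6% of all named genes, with summed signals of 10862, 11072 and 15893. The 4 include Clu, named above for its likeness to Drd4, and Aqp4, above background in pool 3 only. Glul was lowest in pool 3 on its brighter probe set and highest there on the other, at 371.1, 449.5 and 1002.8. Of 9 vessel genes 6 were highest in pool 3, but only Kdr was above background in all pools. Of 7 ganglion cell genes 5 were highest in pool 3, and of 5 cone genes 1. Summed amacrine signals were 13714, 11981 and 14984, and summed cone signals 3264, 4493 and 3771. Neither sum was as far apart between pools as Drd4.

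Among the other dopamine receptors, Drd2 and Drd3 were measured, and Drd1 and Drd5 were not analysed here. Drd2, also an inhibitory receptor and the autoreceptor of dopaminergic cells, read 430.3, 289.9 and 684.3. It was above background in pools 1 and 3 and not in pool 2, so that pool 3 was at least 1.27-fold above pool 2. Drd3, the remaining member of the D2-like class, read 60.1, 82.4 and 67.5, far under the limit of every array. Drd4 was therefore the only 1 of the 3 measured receptors above background throughout, and this no longer held at the 95th percentile. The share of all 8251 named genes above background in all pools was 33.4%.

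Drd4 was set against its wider receptor family through 16 measured receptors for noradrenaline, serotonin, histamine and acetylcholine. None of the 16 was above background in all pools, against 33.4% of all named genes. Of the 16, 5 were above it in some pools and 11 in none, against 50.8% of all named genes in none. Htr5a, a serotonin receptor, read 551.9, 471.2 and 593.6 and was above background in pools 1 and 3. Htr7 read 365.0, 358.4 and 514.2 and Adra2c, an alpha-2 adrenergic receptor, 310.1, 258.5 and 502.4, both above background in pool 3 only. Htr1b read 406.0, 355.0 and 249.6 and Htr4 434.4, 227.0 and 397.7, both above background in pool 1 only. With the limit at the 75th percentile 8 of the 16 were above it throughout, so these counts rest on where the limit lies. The share of all named genes above that lower limit was not computed.

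Dopamine's own synthesis and handling were measured with 8 genes. Th, tyrosine hydroxylase, the rate-limiting enzyme of dopamine synthesis and the marker of dopaminergic amacrine cells, read 352.1, 498.9 and 452.7 and exceeded the limit in pool 3 only, by a small margin. Ddc, the decarboxylase that completes dopamine synthesis, read 176.8, 89.2 and 118.8, and Slc6a3, the dopamine transporter, 78.4, 124.7 and 106.9, and neither was above background. None of these 3 had its highest signal in pool 3. Qdpr, which regenerates the cofactor of tyrosine hydroxylase, read 2179, 2556 and 2182. It was the only 1 of the 8 above background throughout, against 33.4% of all named genes. Pts and Spr, enzymes that make the cofactor, were above background in pool 1 and in 1 other pool each, Pts at 526.3, 620.7 and 414.2 and Spr at 503.2, 192.2 and 536.3. Gch1, the first enzyme of that route, read 22.5, 34.8 and 10.1, and Maoa, which breaks dopamine down, 275.2, 327.3 and 166.5, both without exceeding background.

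The G proteins through which the D4 receptor signals were measured too. Of 5 alpha subunits of the Gi and Go class, 3 were above background in all pools, against 33.4% of all named genes. These were Gnai2, at 8536, 7972 and 9854, Gnai3, at 2794, 1967 and 1274, and Gnao1, at 3887, 6912 and 6382. Other probe sets differed. Another Gnai2 set, above background throughout, read 568.7, 1228.9 and 953.8, highest in pool 2. The last Gnai2 set read 2244.9, 2442.6 and 2482.0, highest in pool 3. A further Gnao1 set above background throughout read 562.0, 605.3 and 752.8, highest in pool 3. The remaining Gnao1 sets were above background in no pool. Gnai3 was lowest in the pool where Drd4 was highest. Gnaz read 411.9, 378.4 and 1007.9, above background in pools 1 and 3, and was at least 1.87-fold higher in pool 3 than in pool 2. Gnai1 read 333.1, 386.6 and 421.4 and exceeded the limit in pool 3 only.

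Of 10 beta and gamma subunits, 6 were above background in all pools, against 33.4% of all named genes. Values below the limit included, 9 of the 10 were highest in pool 3, against 33.6% of all named genes. Gnb1, the beta subunit of rod transducin that other cells make too, read 7630, 14796 and 28821, and its other probe sets followed the same order. Unlike Drd4 it also differed between pools 1 and 2. Gnb5, the partner of the photoreceptor RGS protein, read 892.7, 831.0 and 1701.9, alike in pools 1 and 2 and 2.05-fold higher in pool 3 than in pool 2. Gnb3, the beta subunit of cones and ON bipolar cells, read 5092, 5047 and 6703. Gng3, a neuronal gamma subunit, read 4149, 3450 and 6041, also highest in pool 3, whereas Gnb2 and Gng10 spanned 1.17-fold and 1.13-fold.

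Cyclic AMP is the messenger that the D4 receptor lowers. Of 7 measured adenylyl cyclases, which make it, 2 were above background in all pools, against 33.4% of all named genes. Adcy2 read 1388, 607.7 and 1457, low in pool 2, and Adcy6 read 1323, 1393 and 1012, lowest in pool 3. Adcy3, Adcy4, Adcy7, Adcy8 and Adcy9 were not above background in any pool, with signals between 86.0 and 361.5 on their brightest probe sets. Adcy1, the calcium-stimulated cyclase tied to Drd4 in the retina, was not analysed here. Of 6 phosphodiesterases that break the messenger down, 1 was above background throughout, against the same 33.4%. This was Pde1b, at 925.2, 930.5 and 1098.

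Protein kinase A, which the messenger activates, had 6 of 8 measured genes above background in all pools, against 33.4% of all named genes. Its catalytic subunits differed little between pools, Prkaca reading 1786, 1796 and 1688 and Prkacb 1969, 2405 and 2387. Pkig, an inhibitor of the kinase, was likewise close between pools, at 1455, 1254 and 1400 to the nearest unit. The regulatory subunit Prkar1a had the same order of pools as Drd4, at 5435, 6187 and 7679, over a far smaller range of 1.41-fold. Pdc, phosducin, a photoreceptor protein that protein kinase A phosphorylates in the dark, was nearly level at 21088, 23619 and 21313. Gjd2, connexin 36, the gap junction protein of photoreceptors whose coupling dopamine reduces, read 223.9, 32.1 and 258.7, below background in every pool, as did the cyclic AMP response factors Creb1 and Crem.

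Other measured partners showed no step like that of Drd4. Grk6, a receptor kinase, read 1050.2, 599.7 and 797.4, and Grb2, an adaptor that binds the D4 receptor's intracellular loop, 812.3, 575.1 and 563.3. Arrb1, beta-arrestin, read 571.7, 319.4 and 641.1, the middle value below background. Of the 4 potassium channel subunits that Gi-coupled receptors can open, Kcnj3, Kcnj5 and Kcnj6 were above background in no pool. The share of all named genes above it in no pool was 50.8%. Kcnj9 read 474.4, 248.3 and 733.0 on its brighter probe set, and 310.0, 447.3 and 413.8 on the other, which was below background throughout, so its order between pools differs by probe set.

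Melatonin acts opposite to dopamine in the retina, and Aanat is its timed enzyme. The brighter Aanat probe set read 486.8, 443.2 and 433.9, above background in pools 1 and 3, and the other at most 86.0, below it. Mtnr1a, a melatonin receptor, and Tph1 were below background in all pools. Because Drd4 follows the time of day, clock genes were added after its values were seen. Of 14 measured, 6 were above background throughout, against 33.4% of all named genes, and their median range was 0.20 on the log2 scale. Arntl, the clock activator also called Bmal1, read 1505, 1572 and 1568, and Nr1d2, a clock repressor, 798.5, 791.7 and 832.4. These were the most level of the list, within 1.05-fold. Tef, at 1731, 1280 and 1153 to the nearest unit, and Csnk1d, at 3066, 2043 and 2365, were also above background throughout and were highest in pool 1, whereas Cry1, at 1056, 1035 and 1238, was highest in pool 3. Csnk1e, a clock kinase, read 1549.5, 535.6 and 686.0, and was at least 2.88-fold higher in pool 1 than in pool 2. Per1 read 467.0, 278.9 and 244.7, above background in pool 1 only, and Dbp 242.9, 123.0 and 334.9, below it in every pool.

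Over the 12 lists, 81 genes were measured and 23 (28.4%) were above background in all pools, against 33.4% of all named genes. Leaving out Drd4, which was chosen for its values, 6 of the other 22 (27.3%) had a range over 1 log2 unit, against 6.61% of all genes above background in all pools. Of these 22, 10 (45.5%) were highest in pool 3, against 31.1%. The 6 were Gnb1, Prkar1b, Adcy2, Gnai3, Pkia and Gnb5, and they differed in which pool was highest. Gnb1, Gnb5 and Adcy2 were highest in pool 3, Gnai3 and Prkar1b in pool 1, and Pkia, an inhibitor of protein kinase A, in pool 2. For Prkar1b and Pkia this rests on the brighter of 2 probe sets. The other set, also above background throughout, had a range of 0.32 on the log2 scale for Prkar1b, at 971.6, 1102.7 and 882.0, and of 0.52 for Pkia, at 493.7, 655.8 and 458.8. Drd4 had the widest range of the 23, at 2.33 on the log2 scale, followed by Gnb1 at 1.92, and the median was 0.50.

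**Figure D3:**
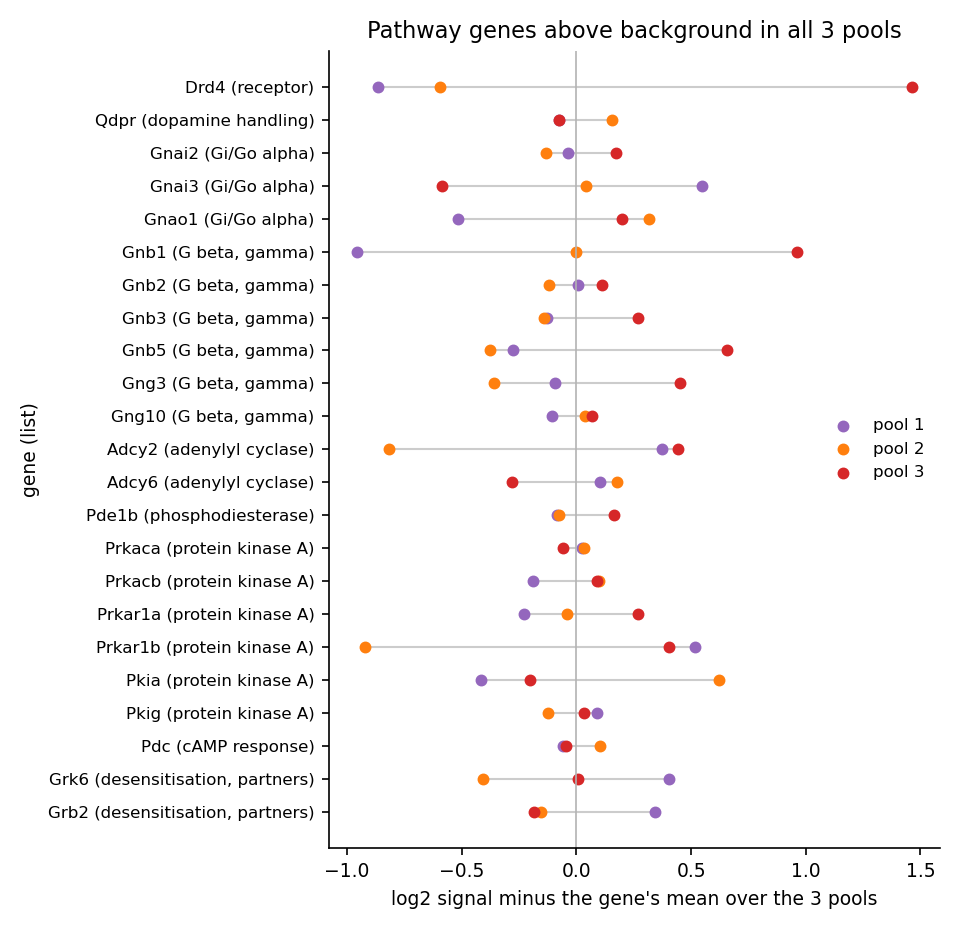
Log2 signal minus the gene's own mean over the 3 pools for the 23 pathway genes above background in all pools, 1 point per pool (purple, pool 1; orange, pool 2; red, pool 3). Drd4 has the longest line, with pools 1 and 2 near each other on the left and pool 3 at 1.46 on the right.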

How the data were processed

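Total RNA of 3 pools of mouse neural retina was measured on 1 array each. The authors deposited 1 linear intensity per probe set, with the summarising software not given in the sources used here, and depth has no meaning for arrays, whose number limits the precision. Python 3.11.15, pandas 2.3.3 and numpy 2.4.6 were used. Signals below 1 were set to 1 before log2, and 66 control probe sets were left out. Gene symbols came from GEO's platform annotation, with 10839 probe sets updated through the Entrez number from RefSeq (GRCm38.p6). Symbols were single for 10855, several for 396 and none for 1237 probe sets. A gene with several probe sets is given by the one with the highest mean, so other probe sets can differ. No test was run, as there is 1 group. The likeness measure was run on simulated data into which the Drd4 pattern had been planted with little noise. That checks the calculation and not how well the measure works on these 3 pools. Named genes are Drd4, the measured members of the short pathway lists, members of the others as far as they were above background in some pool, and the 5 nearest patterns. Gnat1, Crygs and Crybb2 were named after their values were seen. Drd4 and the lists were chosen with earlier results of these data known, and the clock list after the values of Drd4 were seen. Alternatives covered the scaling, the limit, low values, probe sets and each pool left out.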

Additional observations from a re-analysis of the deposited data

How the results depend on the processing

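Under median scaling and quantile normalization, the mean, spread, background count and nearest patterns of Drd4 kept their values to within 1.5 times, and the 5 nearest patterns were the same genes, also with 100 added before log2. At the 95th percentile limit Drd4 was above background in 1 pool instead of 3. At the 75th percentile 44 pathway genes instead of 23 were above background in all pools, and the counts of 7 of the 12 lists moved by over 1.5 times, against 3 at the 95th percentile and 5 without pool 2. The shares of all named genes above the 75th and 95th percentile limits were not computed. The fold of pool 3 over pool 1 became 15.6 instead of 5.03 with the limit subtracted, by construction, and was 4.40 to 4.88 under the other alternatives added after seeing the data. Compared with all probe sets, dim ones included, 90.4% instead of 99.3% had a smaller SD than Drd4. Leaving out 1 pool at a time gave an SD of Drd4 from 0.19 to 1.65 and a share of probe sets with a smaller SD from 48.3% to 99.8%, both lowest without pool 3. The mean log2 signal of Drd4 lay between 9.20 and 10.37, the mean signal between 592.5 and 1674, and the pathway count between 23 and 30. No paired analysis was possible because there is 1 group. A second list of genes of other tissues was planned as the source of the limit and was not run. With 3 arrays and pools 1 and 2 near background, the level of Drd4 in those pools is known only loosely.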
